A study of Mus musculus with 6 samples.

Results

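The genes described here are members of the Ly6 family (Ly6a, Ly6c1, Ly6c2 and Ly6e), the paired cytokine receptor genes Csf2rb and Csf2rb2, and the histidine decarboxylase gene Hdc. These 7 genes were taken by symbol from a table of 13595 genes, and 6 of them were measured. Ly6c2 was not analysed here. They were chosen by their normalized read counts, because Ly6c1, Csf2rb and Hdc were among the genes with the most unequal levels between libraries labelled male and libraries labelled female. The difference between those groups is therefore given for the 6 genes as a description, without a test.

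The RNA came from primary liver cells of C57BL6/J mice aged 4 weeks, selected for the endothelial surface protein CD31 and grown in culture. All 6 libraries were made from cells exposed to indoxyl sulfate at 100 µM together with 6 hours of hypoxia and nutrient deprivation, and they differ by labelled sex alone, with 3 labelled male and 3 labelled female (replicates 4, 5 and 6 of each). Indoxyl sulfate is a tryptophan metabolite that accumulates in kidney failure and binds the aryl hydrocarbon receptor. Untreated or normoxic cells were not analysed here, so neither agent's own effect on these genes was measured. The labels do not say whether a replicate is a mouse, a pool or a well, so every SD and p-value covers the spread between these libraries, which may be technical.

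Ly6 proteins are small three-finger proteins held on the outer cell surface by a glycosylphosphatidylinositol (GPI) anchor. Ly6a, also called Sca-1, marks stem and progenitor cells and is present on many mouse endothelial cells, and its transcription is raised by interferon. Ly6c1 and Ly6c2 encode the near-identical antigens read by anti-Ly6C antibodies, the first being typical of endothelium and the second of monocytes. Csf2rb encodes the signalling chain shared by the receptors for GM-CSF, IL-3 and IL-5, while its mouse copy Csf2rb2 pairs with the IL-3 receptor alone. Hdc makes histamine from histidine and is best known in mast cells, basophils and enterochromaffin-like cells.

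The libraries held 22303270 to 31189363 reads in total, and values are normalized read counts as deposited, in which 3 reads correspond to 0.106 to 0.142. The labelled sex was matched by the X-linked RNA Xist, at 0.323 ± 0.176 (SD, n = 3) in libraries labelled male and 286 ± 46.7 (SD, n = 3) in those labelled female. The Y-linked genes went against the labels, since Ddx3y, Uty, Eif2s3y and Kdm5d were present in all 3 libraries labelled female, with means from 19.1 to 52.1 beside 26.9 to 58.1 in libraries labelled male. Groups are for that reason named by their labels throughout. The endothelial markers Cdh5 (924 ± 5.58 against 387 ± 11.9, SD, n = 3) and Pecam1, which encodes CD31 (407 ± 16.2 against 73.9 ± 0.540, SD, n = 3), were found in every library but were lower in those labelled female. In bulk RNA, fewer cells of a type and less RNA per cell cannot be told apart.

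All 6 genes were lower in every library labelled female than in every library labelled male. Each was also among the 4351 genes called lower (limma, Benjamini-Hochberg adjusted p under 0.05) of 12568 tested, which is 34.6% of them, and 37.0% of tested genes had all libraries labelled female below all labelled male. As the choice of genes used this contrast, nothing is read from that count. The median difference over all tested genes was 0.01 on the log2(value + 1) scale, so the table as a whole was centred. By size of decrease, Ly6c1 ranked 2, Hdc 5, Ly6a 16, Csf2rb 45, Ly6e 93 and Csf2rb2 1437 among the tested genes. Of the 6, Csf2rb, Csf2rb2 and Hdc did not reach a value of 1 in all libraries labelled female, and Hdc reached it in none, so these passed the filter on low values (at least 1 in at least 3 libraries) only with the libraries labelled male.

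**Figure D1:**
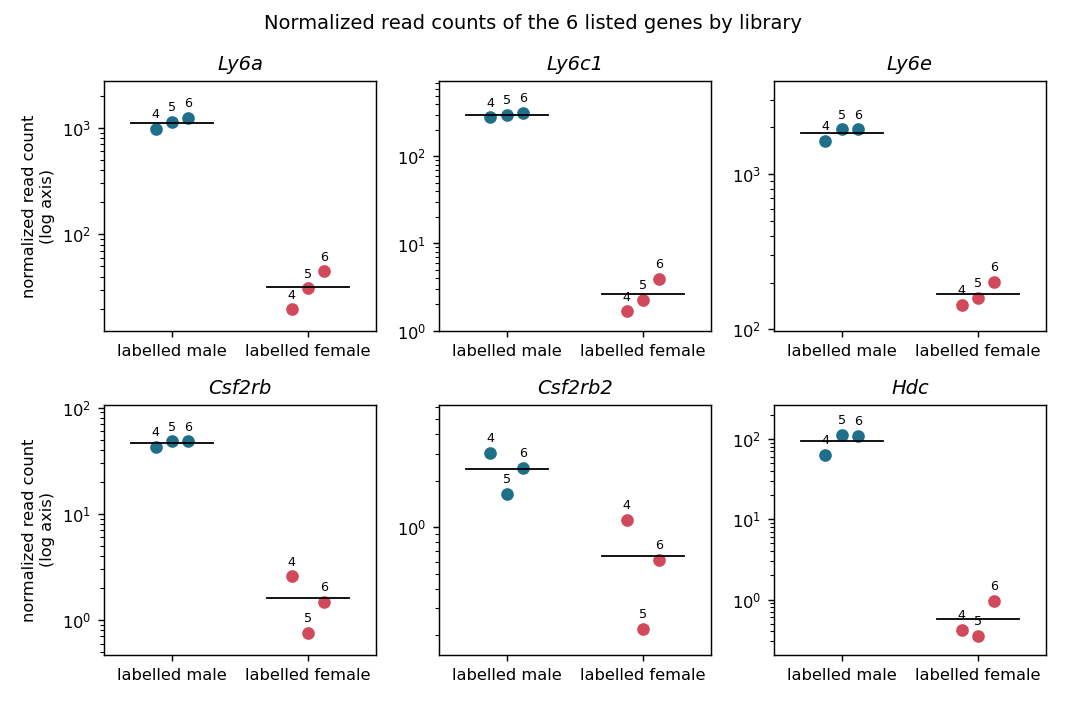
Normalized read count (log axis) of Ly6a, Ly6c1, Ly6e, Csf2rb, Csf2rb2 and Hdc in each library, with points for libraries (numbered by replicate) and horizontal lines for group means. The groups are separate in each panel, most narrowly for Csf2rb2, whose lowest library labelled male (1.64) is 1.46 times its highest labelled female (1.12).

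Ly6c1 had the largest difference among the Ly6 genes. Its normalized read count was 279.8, 300.3 and 314 in male 4, 5 and 6, and 1.66, 2.25 and 3.89 in female 4, 5 and 6, the latter resting on 40, 51 and 82 reads. The group means, 298 ± 17.0 and 2.60 ± 1.16 (SD, n = 3), stood 114-fold apart. Even the closest pair of libraries across the groups differed 71.9-fold. The libraries labelled female held 0.874% of the level of those labelled male, which was low but above the 3-read floor in each.

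Ly6c1 shares sequence with its copy Ly6c2, which limits how far reads can be assigned between them. Their coding sequences (from the first-numbered GENCODE M21 transcript of each) were 97.7% identical over 396 bases, with 9 mismatches and 0 gaps. Of the 50-base words of all Ly6c1 transcripts, 21.5% also occurred in Ly6c2 and 11.1% in Ly6a. How the authors' counting split such reads is not given in the sources used here, so the Ly6c1 value may hold reads of Ly6c2 or of Ly6a. In female 4, 5 and 6 Ly6a had 473, 700 and 941 reads beside 40, 51 and 82 of Ly6c1, and the share of misplaced reads was not measured. The 250 bases before the annotated start of each gene are shown because they set the copies apart where the coding sequences hardly do, at 57.7% identity in a global alignment with 52 mismatches and 68 gap columns. They come from the RefSeq promoter table (GRCm38.p6, minus strand, chr15:75048838-75049087 for Ly6c1 and chr15:75111972-75112221 for Ly6c2), and capitals mark the runs of at least 12 bases found in both, 47 bases in each.
Ly6c1: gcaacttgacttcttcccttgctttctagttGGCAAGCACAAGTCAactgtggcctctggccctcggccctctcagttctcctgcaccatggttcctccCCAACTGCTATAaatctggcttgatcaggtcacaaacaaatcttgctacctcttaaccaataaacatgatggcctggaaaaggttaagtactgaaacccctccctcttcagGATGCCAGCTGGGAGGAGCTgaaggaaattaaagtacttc
Ly6c2: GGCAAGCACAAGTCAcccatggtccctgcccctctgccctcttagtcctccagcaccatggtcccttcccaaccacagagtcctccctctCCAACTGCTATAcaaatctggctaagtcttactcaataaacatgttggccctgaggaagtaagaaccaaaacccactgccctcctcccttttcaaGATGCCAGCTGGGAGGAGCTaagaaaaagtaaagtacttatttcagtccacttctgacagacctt
The shared runs keep their order in both genes but lie at different distances from the start. In Ly6c1 the letters TATAAA, which overlap the second shared run, begin 143 bases before the start, and they do not occur in the 250 bases shown for Ly6c2 on either strand. Of 32851 RefSeq promoters, 12.4% hold TATAAA in the same window.

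Ly6a was the most abundant of the 6 genes per kilobase in libraries labelled male, with lengths of 819 bases for Ly6a and 2281 for Ly6e. Ly6e has 16 annotated transcripts and no shorter length was tried, so this rank depends on the length taken. By read count Ly6e was above Ly6a in every library. The normalized read count of Ly6a was 977, 1132 and 1240 in male 4, 5 and 6, and 19.6, 30.9 and 44.7 in female 4, 5 and 6. The means of 1116 ± 132 and 31.8 ± 12.5 (SD, n = 3) differed 35.1-fold, with 21.9-fold between the nearest libraries. Its coding sequence was 82.0% identical to that of Ly6c1, and 15.0% of its 50-base words occurred in Ly6c1. Ly6a was nevertheless the more abundant of the pair in each library, so shared reads with Ly6c1 weigh less on its value.

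Ly6e, a broadly expressed family member that acts in virus entry and placental development, kept the largest share of its level among the 3 Ly6 genes. Its normalized read count was 1632, 1940.03 and 1938 in male 4, 5 and 6, and 144, 159 and 202 in female 4, 5 and 6. The means were 1837 ± 177 and 168 ± 30.2 (SD, n = 3), so that libraries labelled female held 9.16% of the level in those labelled male. None of its 50-base words occurred in another gene, which makes it the Ly6 value least open to shared reads. The 3 Ly6 genes thus differed in the same direction by 10.9-fold, 35.1-fold and 114-fold.

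Per kilobase of the same transcripts, the order in libraries labelled male was Ly6a (1363 ± 161 normalized counts per kilobase, SD, n = 3), Ly6e (805 ± 77.7) and Ly6c1 (353 ± 20.2), with no overlap between neighbours. In libraries labelled female it was Ly6e (73.7 ± 13.2, SD, n = 3), Ly6a (38.8 ± 15.3) and Ly6c1 (3.08 ± 1.37), again with no overlap. The place of Ly6e after Ly6a in libraries labelled male rests on the 2281 bases taken for Ly6e. The ratio of their read counts differed within libraries as well, although Ly6a stayed below Ly6e in each. Ly6a was 59.8%, 58.3% and 63.9% of the Ly6e count in male 4, 5 and 6, and 13.6%, 19.5% and 22.1% in female 4, 5 and 6. Ly6c1 was 28.7%, 26.5% and 25.3% of the Ly6a count in the libraries labelled male and 8.46%, 7.29% and 8.71% in those labelled female. These ratios are of read counts, not of levels per length, and are set side by side only between libraries. Both separate the groups. As Ly6c1 was chosen for its difference between them, this describes these libraries and is no test of a common factor.

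**Figure D2:**
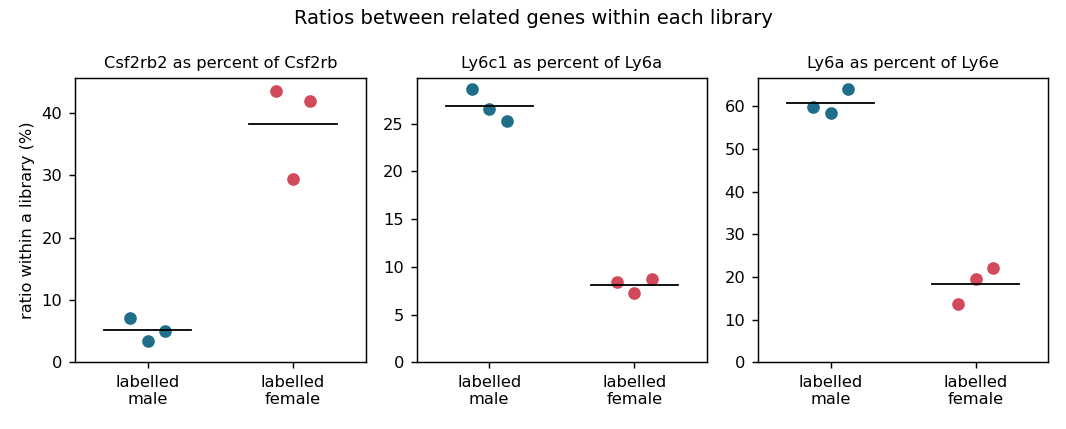
Count of one gene as a percent of a related gene's count within each library (points) with group means (horizontal lines), for Csf2rb2 to Csf2rb, Ly6c1 to Ly6a and Ly6a to Ly6e. The Csf2rb2 ratio is higher in libraries labelled female (29.4 to 43.5%) than in those labelled male (3.41 to 7.06%), and both Ly6 ratios are lower.

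Among the libraries labelled female, all 3 Ly6 genes were lowest in female 4 and highest in female 6, an order that 24.3% of tested genes had. Female 6 held 2.28 times the Ly6a, 2.35 times the Ly6c1 and 1.40 times the Ly6e of female 4, where the median ratio over all tested genes was 1.01. A ratio at least as high as that of Ly6a was found in 0.772% of tested genes, and one as high as that of Ly6e in 4.34%. Hdc, at 2.29 times in female 6, had a like ratio on few reads. The summed level of the 31 interferon genes described below was 901, 927 and 1367 in female 4, 5 and 6, so it too was highest in female 6, by 1.52 times. It was 2573 to 2625 in the libraries labelled male. Whether it bears on the Ly6 values was not tested.

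Csf2rb, the shared beta chain, was at 42.9, 48.0 and 48.0 in male 4, 5 and 6. It was at 2.57, 0.751 and 1.47 in female 4, 5 and 6, from 62, 17 and 31 reads. The means of 46.3 ± 2.98 and 1.60 ± 0.917 (SD, n = 3) differed 29.0-fold. Csf2rb was highest in female 4 among the libraries labelled female, with female 6 at 0.572 of it.

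Csf2rb2, the copy restricted to IL-3, was weakly expressed everywhere. Its normalized read count was 3.03, 1.64 and 2.44 in male 4, 5 and 6 and 1.12, 0.221 and 0.617 in female 4, 5 and 6, the lowest of them resting on 5 reads. The means, 2.37 ± 0.696 and 0.653 ± 0.451 (SD, n = 3), were 3.63-fold apart, but the nearest libraries only 1.46-fold.

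The paired receptor genes were 92.9% identical over their coding sequences (2691 and 2637 bases). Of their 50-base words, 12.3% of those of Csf2rb occurred in Csf2rb2 and 18.4% of those of Csf2rb2 in Csf2rb. The Csf2rb2 count was 7.06%, 3.41% and 5.07% of the Csf2rb count in male 4, 5 and 6, and 43.5%, 29.4% and 41.9% in female 4, 5 and 6. Reads wrongly given to the copy can enter this ratio in either group, and their share was not measured. The ratio was higher in every library labelled female than in any labelled male.

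The ligand and alpha-chain genes of these receptors were measured beside the beta chains. Of the 6 listed, Csf2 (GM-CSF itself), Csf2ra and Il3ra were measured, all 3 were called lower in libraries labelled female (as were 34.6% of all tested genes), and Il3, Il5 and Il5ra were not analysed here. Il3ra, the ligand-specific chain of the IL-3 receptor, was at 33.6 ± 3.58 and 20.0 ± 1.03 (SD, n = 3), a log2 difference of -0.71 (SE 0.10, limma adjusted p 0.000226). Csf2ra was at 4.82 ± 0.299 and 3.79 ± 0.189 (SD, n = 3; log2 difference -0.28, limma adjusted p 0.0396). Csf2 was at 1.28 ± 0.0528 and 0.788 ± 0.197 (SD, n = 3; log2 difference -0.36, limma adjusted p 0.0316). Csf2 passed the filter through the libraries labelled male alone, so its call says little. The calls of Csf2 and Csf2ra are near the threshold, and neither passed with quantile normalization, with DESeq2 or with the replicate number as a block.

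Of 20 kinases, adaptors and STAT factors that act below the beta chain, 19 were tested, 10 were called lower in libraries labelled female and 4 higher, with a median log2 difference of -0.36. The shares called over all tested genes were 34.6% lower and 34.6% higher. Jak2, the kinase bound to the beta chain, differed by -0.36 on the log2 scale (limma adjusted p 0.0055). Stat5a, which carries much of the signal, differed by -1.02 (limma adjusted p 4.08e-05), whereas its copy Stat5b (30.3 ± 2.98 and 28.0 ± 1.13, SD, n = 3) was not called. The largest called decreases included those of Pik3r1, the regulatory subunit of PI3-kinase (-1.76), and Ptpn6, a phosphatase that damps cytokine receptors (-1.69), which passed the filter through the libraries labelled male alone. Ptpn11, Sos1, Pik3cd and Tyk2 were called higher, by 0.37 to 0.93.

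Of 14 genes known to be induced through STAT5 or as cytokine feedback, 11 were tested, 5 were called lower and 4 higher (median log2 difference -0.29). The survival kinase gene Pim2 differed by -2.01 (limma adjusted p 1.86e-07) and the feedback inhibitor gene Socs3 by -1.64 (limma adjusted p 4.38e-06). The growth gene Myc was higher by 1.84 (limma adjusted p 0.000771). Cish, the best known STAT5 feedback gene, was at 6.55 ± 2.16 and 5.03 ± 0.461 (SD, n = 3) and was not called. Both counts are near the 34.6% called each way over all tested genes.

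Hdc was at 63.0, 111 and 109 in male 4, 5 and 6, and at 0.415, 0.354 and 0.950 in female 4, 5 and 6. The latter values rest on 10, 8 and 20 reads. Its means of 94.5 ± 27.3 and 0.573 ± 0.328 (SD, n = 3) gave the largest ratio of the 6 genes, 165-fold, and the nearest libraries were 66.4-fold apart. Per kilobase it lay between Ly6c1 and Csf2rb in libraries labelled male (39.5 ± 11.4, SD, n = 3), while in those labelled female it (0.239 ± 0.137) overlapped both Csf2rb (0.336 ± 0.193) and Csf2rb2 (0.138 ± 0.0951). Male 4 stood apart from its group, at 57.2% of the mean of male 5 and male 6, a percent at or below which only 2.98% of tested genes lay. Without male 4 the log2 difference of Hdc was -6.16 in place of -5.90. Next to none of its sequence (0.141% of 50-base words) occurred in another gene.

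The 250 bases before the starts of Hdc and Csf2rb2 are shown because both genes are known from blood cell lineages that use GATA factors. They are from the RefSeq promoter table (GRCm38.p6, minus strand, chr2:126618679-126618928 for Hdc and chr15:78305722-78305971 for Csf2rb2), and capitals mark the motif matches.
Hdc: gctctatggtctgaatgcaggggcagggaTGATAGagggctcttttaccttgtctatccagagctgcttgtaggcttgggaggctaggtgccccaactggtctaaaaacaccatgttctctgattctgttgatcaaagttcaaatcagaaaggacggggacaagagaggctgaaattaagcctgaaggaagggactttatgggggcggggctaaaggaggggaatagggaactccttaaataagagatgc
Csf2rb2: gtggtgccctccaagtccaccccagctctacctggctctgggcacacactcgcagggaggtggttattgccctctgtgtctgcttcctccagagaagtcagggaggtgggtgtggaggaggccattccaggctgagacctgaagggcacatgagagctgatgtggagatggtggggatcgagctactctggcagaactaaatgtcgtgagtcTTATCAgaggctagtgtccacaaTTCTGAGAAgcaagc
Both windows hold 1 GATA match, the letters GATA with A or T before them and A or G after, on either strand, which lies 221 bases before the start in Hdc and 38 before it in Csf2rb2. Of all RefSeq promoters, 26.5% hold such a match in the same window. Csf2rb2 also holds TTCTGAGAA, 15 bases before its start, a match to the STAT-type letters TTCNNNGAA that occur in 7.02% of promoters. Neither these windows nor those of Ly6c1 and Ly6c2 held GAAANNGAA (the interferon type, in 7.13% of promoters), ACGTG (the hypoxia type, in 16.6%), GCGTG (the aryl hydrocarbon receptor type, in 28.2%) or TGANTCA (the AP-1 type, in 6.75%) on either strand. A match is only a run of letters, and its absence speaks for this window alone.

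**Figure D3:**
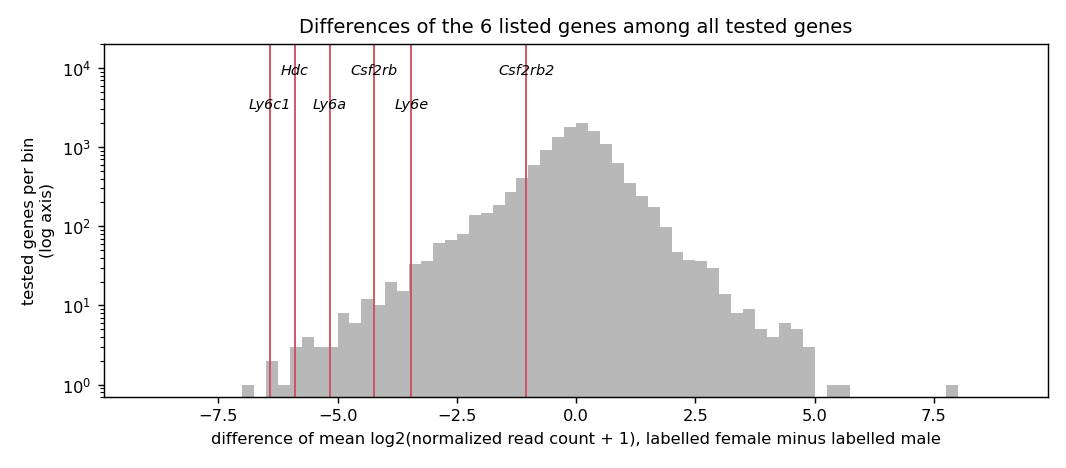
Number of tested genes (log axis) by their difference of mean log2(normalized read count + 1), libraries labelled female minus labelled male, with the 6 genes marked. Ly6c1 (-6.42), Hdc (-5.90) and Ly6a (-5.16) lie in the far left tail, Csf2rb (-4.25) and Ly6e (-3.45) next to it, and Csf2rb2 (-1.04) within the main body.

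Genes that receive, clear or carry histamine were measured beside Hdc. Of 15 such genes 6 were tested, 3 were called lower and 2 higher, with a median log2 difference of -0.16, too few to set apart from the 34.6% called each way over all tested genes. Maob, one of the oxidases that end histamine breakdown, was at 16.0 ± 0.563 and 9.21 ± 0.947 (SD, n = 3; log2 difference -0.74, limma adjusted p 0.000222). Its relative Maoa was higher in libraries labelled female, at 70.5 ± 13.0 and 162 ± 18.2 (SD, n = 3; log2 difference 1.20, limma adjusted p 6.74e-05). Slc29a4, a low-affinity transporter of monoamines, was also higher, by 0.95 (limma adjusted p 0.000838). The vesicle transporter gene Slc18a2 (-0.39) and the aldehyde dehydrogenase gene Aldh2 (-0.51) were lower. The receptor gene Hrh1 lay under the filter, at 0.549 ± 0.207 and 0.541 ± 0.343 (SD, n = 3), and Hrh2, Hnmt and Aoc1 were not analysed here.

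Hdc needs pyridoxal phosphate, the active form of vitamin B6. Of 8 genes for related decarboxylases or for this cofactor, 5 were tested, 2 were called lower and 1 higher, too few to set apart from the 34.6% called each way over all tested genes. Pdxk, the kinase that makes the cofactor, was at 61.7 ± 2.95 and 13.7 ± 0.799 (SD, n = 3; log2 difference -2.09, limma adjusted p 1.83e-07). Csad, the decarboxylase of taurine synthesis, differed by -1.49 (limma adjusted p 1.17e-05), and Sgpl1, which cleaves sphingosine phosphate, was higher by 0.47 (limma adjusted p 0.000685).

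Of 36 further genes of the Ly6 and urokinase receptor family, 7 were measured and 4 tested. Ly6d, a keratinocyte and lymphoid progenitor antigen, was at 18.3 ± 6.30 (SD, n = 3) in libraries labelled male and at 3, 0 and 1 reads in female 4, 5 and 6, at least 138-fold higher in the former against a floor of 3 reads per library, and it passed the filter only through the former. Lynx1, a modulator of nicotinic receptors, was lower by 0.94 (log2 difference -0.94, limma adjusted p 0.000175). Plaur, the urokinase receptor, went the other way, from 36.0 ± 1.87 to 113 ± 12.3 (SD, n = 3; log2 difference 1.62, limma adjusted p 1.31e-06). Cd59a, which blocks complement, was at 20.6 ± 0.954 and 19.7 ± 0.217 (SD, n = 3) and was not called. The family outside the 6 genes was thus not uniformly lower.

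The GPI anchor is built by a shared pathway, and 29 of its 30 genes were tested. In it 13 genes were called lower in libraries labelled female and 4 higher, with a median log2 difference of -0.19, where 34.6% of all tested genes were called each way. Piga, which catalyses the first step, differed by -1.15 (47.2 ± 3.91 and 20.8 ± 2.73, SD, n = 3; limma adjusted p 3.08e-05), Pgap2 by -0.79 and Dpm3 by -0.66. Pigf, Pigg, Pigq and Pigw were called higher, by at most 0.64.

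The interferon list holds the receptors, their STAT factors and genes they induce, among which Ly6a and Ly6e are commonly counted. Of its 30 tested genes limma called 23 lower in libraries labelled female and 0 higher, with a median log2 difference of -1.31, where 34.6% of all tested genes were called each way. Ifit2 and Cxcl10, whose differences were above 0, had limma adjusted p-values of 0.209 and 0.351, and edgeR and DESeq2 also called 0 higher. Oas2, a sensor of double-stranded RNA, differed by -3.09 (limma adjusted p 1.13e-06), Zbp1 by -3.07 and Irf7, the master factor of type I interferon, by -2.88. The receptor genes Ifnar1 (-0.78) and Ifnar2 (-0.91) were called lower, while Ifngr1 (-0.05) and Ifngr2 (-0.03) were not called.

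**Figure D4:**
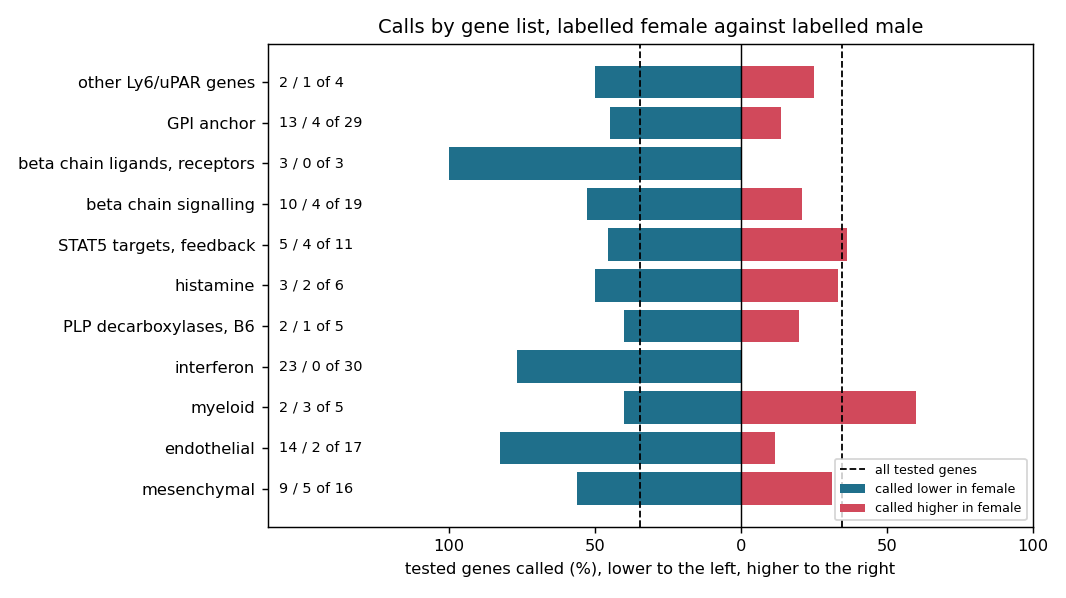
Percent of tested genes called lower (left) and higher (right) in libraries labelled female, for each gene list with at least 3 tested genes, with the numbers lower, higher and tested beside each. Dashed lines are the shares over all tested genes (34.6% each way), and the interferon list has 23 of 30 called lower and 0 higher.

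Markers of cell types that could carry these genes were measured beside them. The 20 endothelial markers summed to 2582 to 2658 in libraries labelled male and 1285 to 1351 in those labelled female. Of 17 tested 14 were called lower and 2 higher, where 34.6% of all tested genes were called each way. Vwf (-4.71), Plvap (-3.99) and Egfl7 (-3.81) led the decreases. Of the 17, 3 passed the filter through a single group, and with at least 10 reads in every library 11 were called lower. The mesenchymal markers summed to 2931 to 3771 and 3610 to 4323, with 9 of 16 tested called lower and 5 higher (34.6% each way over all tested genes). Those lower included Pdgfrb (-3.13), Col3a1 (-2.47) and Pdgfra (-1.61), and those higher the contractile genes Myh11 (5.54), Acta2 (4.57) and Tagln (4.43). Male 4 stood apart in Acta2 and Tagln too, as the highest library labelled male, where for Hdc it was the lowest. Acta2 was at 134, 56.4 and 45.9 in male 4, 5 and 6 and Tagln at 83.6, 40.2 and 32.5. Single endothelial markers differed widely, from Vwf (77.2-fold lower in libraries labelled female, and past the filter through those labelled male alone) to Ptprb, which was higher there (4.71 ± 0.628 and 62.3 ± 4.11, SD, n = 3; log2 difference 3.47). Eng was the other marker called higher (log2 difference 0.40). The part of either cell type in the difference of the 6 genes was not tested.

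Of 23 myeloid, 17 mast cell and basophil and 13 lymphocyte markers, 12, 5 and 0 were measured, and most of those measured were low. Tyrobp had 0 reads in all 6 libraries, and Ptprc (CD45, carried by nearly all leukocytes) had 0 reads in the libraries labelled male and 8, 5 and 3 in female 4, 5 and 6. The 12 measured myeloid markers summed to 33.5 to 39.9 in libraries labelled male and 23.4 to 26.4 in those labelled female. Itgb2 (23.2 ± 1.75 and 5.58 ± 0.541, SD, n = 3) made up most of the sum in libraries labelled male only. Of 5 tested, 2 were called lower (Itgb2 and Cd14) and 3 higher, too few to set apart from the 34.6% called each way over all tested genes. Those higher were Csf1r (3.47 ± 0.648 and 5.59 ± 0.854, SD, n = 3), Cd68 (5.25 ± 0.596 and 7.68 ± 0.407) and Fcer1g. Fcer1g had 1, 2 and 0 reads in male 4, 5 and 6 and 64, 46 and 46 in female 4, 5 and 6. It passed the filter through the libraries labelled female alone, so its call says little. The 13 lymphocyte markers were not analysed here. Of 17 mast cell and basophil markers 5 were measured, summing to 227 to 290 and 83.4 to 98.1, most of it Gata2, a factor that endothelium also uses. Kit, the stem cell factor receptor, was at 38.0 ± 1.83 and 0.434 ± 0.213 (SD, n = 3) and passed the filter through the libraries labelled male alone, like Hdc. Of the mast cell protease genes, Mcpt2 had 21, 22 and 22 reads in male 4, 5 and 6 and 0, 0 and 1 in female 4, 5 and 6, and Mcpt4 was at 0.183 ± 0.148 and 0.0295 ± 0.0510 (SD, n = 3). Kit and Mcpt2 were thus lower in libraries labelled female, as Hdc was, but Mcpt2 lay under the filter. Within the libraries labelled male, Hdc had 1520, 2924 and 3084 reads in male 4, 5 and 6, a rise that the Mcpt2 reads did not share. The part of mast cells in the Hdc difference was not tested. Hepatocyte markers summed to 7.42 to 12.5 and 0.285 to 0.398, with Ahsg the most abundant.

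The genes around each locus were called in both directions, as were all tested genes (34.6% lower and 34.6% higher). Within 1 Mb of the Ly6 genes on chromosome 15, 6 of 18 tested neighbours were called lower and 8 higher (median log2 difference 0.26). Around the Csf2rb pair, on the same chromosome, it was 15 lower and 7 higher of 31 (median -0.10), and around Hdc on chromosome 2 it was 6 lower and 9 higher of 23 (median 0.03). Among those called lower, Ly6d, Cyth4 and Mfng passed the filter through the libraries labelled male alone. Among those called higher, Tigd5 and Atp8b4 passed it through the libraries labelled female alone. The calls depend on the distance taken. Within 0.5 Mb, 3 of 5 tested neighbours of the Ly6 genes were called lower and 1 higher (median -0.94), 7 of 11 of the Csf2rb pair were lower and 1 higher (median -0.69), and 2 of 8 of Hdc were lower and 5 higher (median 0.31). The nearest measured genes on the Csf2rb sides were Ift27 (14.7 ± 0.476 and 14.3 ± 0.628, SD, n = 3, not called) and Tst, a thiosulfate sulfurtransferase gene (-0.69). Those of Hdc were Atp8b4 (1.09) and Gabpb1 (0.27), both called higher, though the call of Atp8b4 says little because of how it passed the filter. On the Ly6 sides lay Ly6d and Gpihbp1, the endothelial carrier of lipoprotein lipase, which was at 0.933 ± 0.258 (SD, n = 3) in libraries labelled male and at 0 reads in all 3 labelled female, at least 7.01-fold higher in the former against a floor of 3 reads per library. Gpihbp1 lay under the filter and was not tested.

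**Figure D5:**
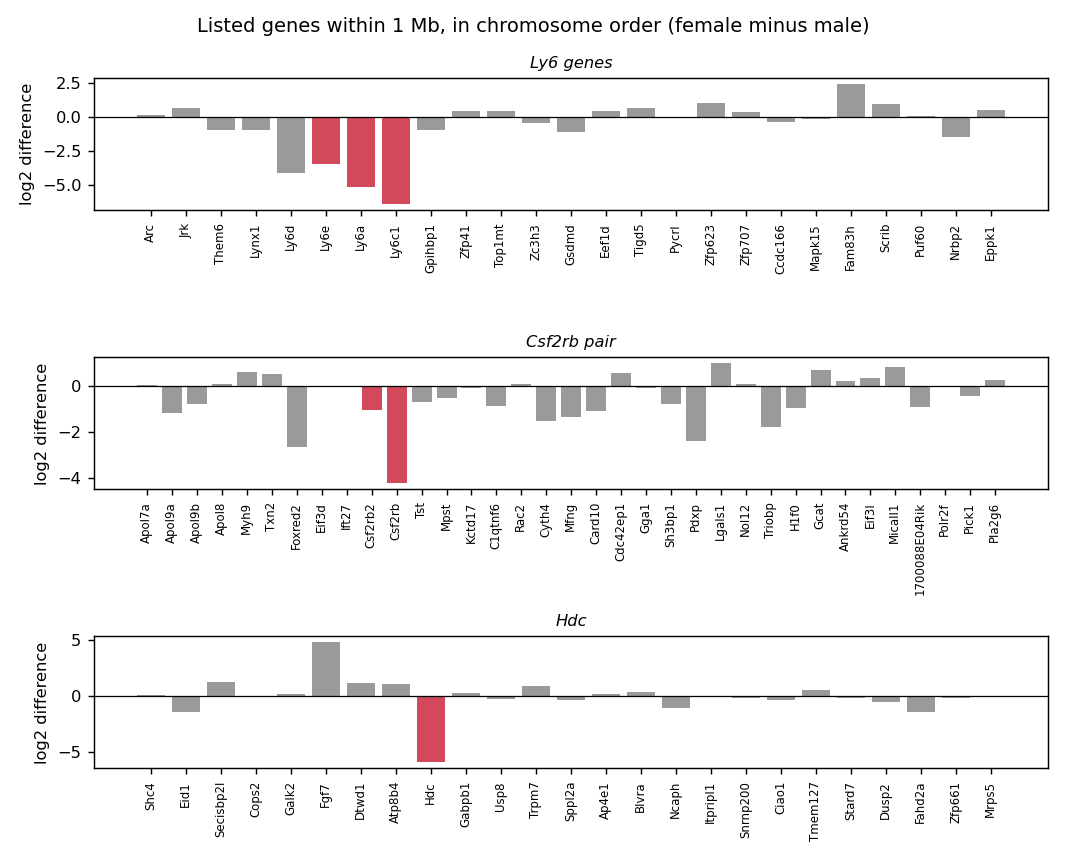
Difference of mean log2(normalized read count + 1), libraries labelled female minus labelled male, for the measured genes within 1 Mb of the Ly6 genes, the Csf2rb pair and Hdc, in chromosome order, with the genes described here in red. The bars around Hdc (-5.90) run both ways, and Ly6d (-4.13) stands with Ly6e, Ly6a and Ly6c1.

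The genes whose profiles over the 6 libraries were most like those of Ly6c1, Csf2rb and Hdc were ranked by the root mean square distance between centred log2(value + 1) profiles. For Ly6c1 they were Tgfbi (distance 0.31), 8430408G22Rik (0.32) and the lymphatic and sinusoidal endothelial receptor gene Lyve1 (0.33), the last at 498 ± 24.8 and 4.98 ± 0.566 (SD, n = 3). For Csf2rb they were Col15a1 (0.24), Olfml3 (0.27) and the cytokine gene Il33 (0.29). For Hdc they were Ndufa4l2 (0.10), 8430408G22Rik (0.23) and the connexin gene Gja4 (0.28). Ndufa4l2, a hypoxia-induced mitochondrial gene, had like Hdc its lowest level among the libraries labelled male in male 4, at 151, 234 and 260 in male 4, 5 and 6, with 2.57, 2.56 and 3.56 in female 4, 5 and 6. With a pseudocount of 0.1 in place of 1, 2 of these 9 places kept their gene (Tgfbi and Il33), so the order of likeness depends on how low values are scaled.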

How the data were processed

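Poly(A) RNA sequencing libraries (Trizol and column extraction, Kapa HyperPrep, per the labels' protocols) were processed by the authors with tools listed as Bowtie2, RSEM and edgeR on mm39, per the submitters' processing notes; versions and the handling of shared reads are not given in the sources used here. Signal values in the deposited table, 1 column per library, are read counts after normalization by the authors, and 0 columns were left without a sample. In every column 100% of values were whole multiples (within 0.01) of the smallest value above 0, which gave back the reads. The deposited score is the authors' signed fold change (female against male), and its p-value and false discovery rate, also deposited, are named so per the file headers. They were not used for any result here.

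The members and lists were chosen with earlier results of these data known. The planned fit was edgeR on counts or limma on normalized values, and since the table holds the latter, limma 3.58.1 (R 4.3.3, eBayes with trend) was run on log2(value + 1) over 12568 genes with at least 1 in at least 3 libraries, all 6 libraries, no covariate, two-sided, Benjamini-Hochberg threshold 0.05. This scale understates differences of weakly expressed genes. Floors are 3 reads and, like read numbers, cover counting error only. Genes outside the 6 were named by a rule: listed ligands, receptors and histamine genes whatever their values, the 3 largest called non-overlapping differences of each list, cell markers at 0 or most abundant, the 3 nearest profiles and the flanking genes. A gene that this rule names is not reported here. Other list genes named in the text were chosen after their values were seen. Neighbours came from RefSeq genes (GRCm38.p6), matched by symbol, and promoters from the RefSeq table, which matched 4 of the 7 genes. Because that build differs from mm39, no coordinates are given except those of the printed promoter sequences, in GRCm38.p6. Scripts were tested on simulated reads. Alternatives were a pseudocount of 0.1, no filter, a filter of 10 reads in each library, RLE factors, quantile normalization, edgeR 4.0.16, DESeq2 1.42.0, the replicate number as a block, a fold threshold and leaving out each library.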

Additional observations from a re-analysis of the deposited data

How the results depend on the processing

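The 6 genes were lower in libraries labelled female under each alternative that tested them. Csf2rb2 and Hdc were not tested with at least 10 reads in every library, nor Hdc without male 4, 5 or 6, as they then fell under the filter. Of 79 recomputed differences 67 moved by less than the replicate spread and 12 by more, all of these 12 on scales that compress low values less. With a pseudocount of 0.1 the log2 difference was -6.87 for Ly6c1, -4.92 for Csf2rb, -1.87 for Csf2rb2 and -7.19 for Hdc. Over all genes, 28 of 30 recomputed counts stayed within 1.5 times, and with an absolute log2 difference of at least 1 also required, 1519 genes were lower and 1070 higher. That requirement left 1 further Ly6 family gene lower, 1 GPI anchor gene lower and 0 higher, 0 beta chain ligands or alpha chains lower, 5 beta chain signalling genes lower and 0 higher, 2 STAT5 targets lower and 1 higher, 0 histamine genes lower and 1 higher, 0 decarboxylase or vitamin B6 genes higher, 1 myeloid marker lower and 1 higher, and 1 endothelial marker higher, by its construction. Without a filter, more genes were tested and 5 further Ly6 family genes were lower, 5 myeloid markers higher and 5 hepatocyte markers lower. With at least 10 reads in every library, fewer were tested and 1 Ly6 family gene, 1 mast cell marker and 0 hepatocyte markers were lower. Of the beta chain ligands and alpha chains, 1 (Il3ra) was lower with quantile normalization, with DESeq2 and with the replicate block, and the cause was not tested. Leaving out each library in turn gave 1 to 2 lower Ly6 family genes, 1 to 2 lower mast cell markers and 0 to 1 lower hepatocyte markers, the smaller count each time without a library labelled male, where fewer genes pass the filter. It gave 1 to 2 lower beta chain ligands or alpha chains (2 without male 4 or female 4, otherwise 1) and 0 to 1 higher interferon genes (Cxcl10, without female 5). Same-numbered libraries did not deviate together (correlations -0.094, -0.03 and -0.17), so the numbers were not taken as pairs, and the replicate block gave 4160 genes lower and 4154 higher. Depth limits Hdc, Csf2rb2 and Csf2rb most, at 5 to 62 reads in libraries labelled female.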
